A study of Rattus norvegicus with 33 samples.

Results

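The rat ventral prostate is a gland lobe whose luminal cells release a few proteins in very large amounts, and 6 of the genes for these products were followed here through 33 arrays: Scgb1d2, Scgb2a1, Scgb1d4, Sbp, Andpro and Klk1c9. Each was found by the gene name of its array probes, with Scgb2a1 also listed under the older name Scgb2a2, and all 6 were measured, among 23156 genes in all. Where a gene had several probes, the brightest stood for it. For Scgb2a1 this is a probe that the files name Scgb2a2, so every value given for Scgb2a1 is that probe's unless another is named. RefSeq lists Scgb2a2 as a synonym of Scgb2a1, but whether the probes of both names measure 1 gene is not settled.

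The arrays came from prostates of male Sprague-Dawley rats. Pups were given subcutaneous vehicle or estradiol benzoate (EB), an esterified estrogen, at 2.5 mg/kg, once on each of postnatal days (PND) 1, 3 and 5. From PND 90 the animals of the T+E and EB+T+E groups carried silastic implants with testosterone (T) and estradiol (E), and those of the adult control and EB groups carried empty ones. Tissue was taken at PND 30 from control and EB animals (4 arrays each), and at PND 100 and PND 145 from all 4 treatments (3 arrays each, 4 for EB at PND 145). The T+E groups therefore had received vehicle as pups, the EB groups had no hormone implant, and the EB+T+E groups had both treatments. The labels count litters as the unit of each group. The sample labels say whole prostate, whereas the title of the series says dorsolateral prostate, so it is not settled from the labels whether the ventral lobe was meant to be included. In a bulk sample, fewer secretory cells and less RNA per cell cannot be told apart.

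The ventral lobe surrounds the urethra from the front and depends on androgens: after castration its luminal cells stop making secretory proteins and many die. Its main product, prostatein, is a steroid-binding tetramer of secretoglobins, small disulfide-linked secreted proteins. Scgb1d2 encodes its C1 subunit, Scgb1d4 its C2 subunit and Scgb2a1 its C3 subunit, and C3 is shared by both kinds of dimer. Sbp encodes spermine-binding protein, an acidic glycoprotein of the same fluid. Andpro encodes an androgen-regulated cystatin-related protein, and Klk1c9 is a tissue kallikrein, a secreted serine protease of a large family of near-identical genes.

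The levels of all the secretory genes moved together, and the promoters of the prostatein genes among them are shown. They span 250 bases before to 50 bases after the annotated start of transcription, from RefSeq with coordinates of assembly GRCr8. Capitals mark the motifs TATAAA and TGTTCT, the last being the half-site of the sequence bound by steroid receptors, searched on both strands.

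Scgb1d2 promoter, chr1:215656661-215656960 (- strand): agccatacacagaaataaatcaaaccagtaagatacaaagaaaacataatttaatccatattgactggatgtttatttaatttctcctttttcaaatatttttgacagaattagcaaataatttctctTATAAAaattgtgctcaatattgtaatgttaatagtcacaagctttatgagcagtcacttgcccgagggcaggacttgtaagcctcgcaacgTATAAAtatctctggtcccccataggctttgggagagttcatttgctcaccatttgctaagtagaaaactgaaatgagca

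Scgb1d4 promoter, chr1:215755113-215755412 (+ strand): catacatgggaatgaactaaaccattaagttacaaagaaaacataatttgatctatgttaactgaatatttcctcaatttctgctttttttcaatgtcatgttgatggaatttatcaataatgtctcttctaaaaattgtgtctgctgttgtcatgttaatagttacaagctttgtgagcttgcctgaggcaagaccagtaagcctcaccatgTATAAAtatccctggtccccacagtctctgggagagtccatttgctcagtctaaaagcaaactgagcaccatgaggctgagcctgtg

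Scgb2a1 promoter, chr1:215922501-215922800 (+ strand): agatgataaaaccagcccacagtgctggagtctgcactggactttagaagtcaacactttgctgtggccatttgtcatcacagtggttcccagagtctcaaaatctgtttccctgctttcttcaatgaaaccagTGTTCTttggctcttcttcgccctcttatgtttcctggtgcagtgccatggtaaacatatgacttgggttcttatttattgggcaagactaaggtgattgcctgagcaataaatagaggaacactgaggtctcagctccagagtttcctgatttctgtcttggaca

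The Scgb1d2 and Scgb1d4 promoters were 72.3% identical in a gapped alignment, whereas the other pairs among the members' promoters gave 44.0% to 49.5%. Both have TATAAA close to the start, at base -30 in Scgb1d2 and -37 in Scgb1d4, and Scgb1d2 has another at -122. Over 33469 promoters of 300 bases, 14.2% hold TATAAA. Scgb2a1 has neither of these but has 1 TGTTCT, beginning at base -116, a motif that 20.7% of promoters hold. The promoters of Sbp (3 annotated starts) and Andpro hold neither motif. The full palindrome, AGAACA and TGTTCT separated by NNN, was in none of the promoters of these 5 genes and in 0.0149% of all promoters. Other motifs were also searched. CCAAT (37.5% of all promoters) was found in Scgb2a1, Andpro and at 2 of the 3 Sbp starts, and TGTTTAC (3.78%) in Scgb2a1. A match is a string of letters and was not tested for binding.

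Levels are given as log2 of the background-corrected signal relative to the 75th percentile of the same array, so 0 is the level of a spot brighter than 75% of spots. The probes lay, in the rn4 coordinates of the files, at chr1:212016521-212016580 (Scgb1d2, minus strand), chr1:212300369-212300428 (Scgb2a1), chr1:212124555-212124614 (Scgb1d4), chr10:13186829-13186889 (Sbp), chr3:138085792-138085851 (Andpro, minus strand) and chr1:94582698-94582757 (Klk1c9). The first 3 therefore lie close together on chromosome 1. Across the arrays the 75th percentile before scaling was 1694 to 4737 intensity units and 61.5% to 68.9% of spots were well above background. Scgb1d2, Scgb2a1, Sbp and Andpro were well above background on all 33 arrays and Scgb1d4 on all 32 where it was measured; its spot on EB PND 145 replicate 3 was an outlier spot and was left out. Klk1c9 was well above background on 28 of 33, and its lowest levels are upper bounds. None of these spots was saturated on any array.

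The 6 genes stood out by how far they spread between animals of 1 group. Scgb1d2 ranged from -5.20 to 6.30 log2 units across the 33 arrays, a ratio of 2891. Scgb1d4 ranged from -4.70 to 7.10, Andpro from -5.69 to 7.53, Sbp from -1.84 to 6.96 and Klk1c9 from -9.17 to 5.79. Scgb2a1 had the narrowest range, 2.37 to 6.88, a ratio of 22.7. Within groups the pooled SD was 2.80 log2 units for Scgb1d2, 2.70 for Scgb1d4, 2.48 for Sbp, 3.48 for Andpro, 4.19 for Klk1c9 and 1.03 for Scgb2a1, against a median of 0.56 over all genes. Of the 23156 genes, 1 had a larger pooled SD than Klk1c9, 17 than Andpro, 73 than Scgb1d2, 85 than Scgb1d4, 123 than Sbp and 3081 than Scgb2a1. The genes were proposed as markers with earlier results of these arrays known, so these ranks describe them and are no test.

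**Figure D1:**
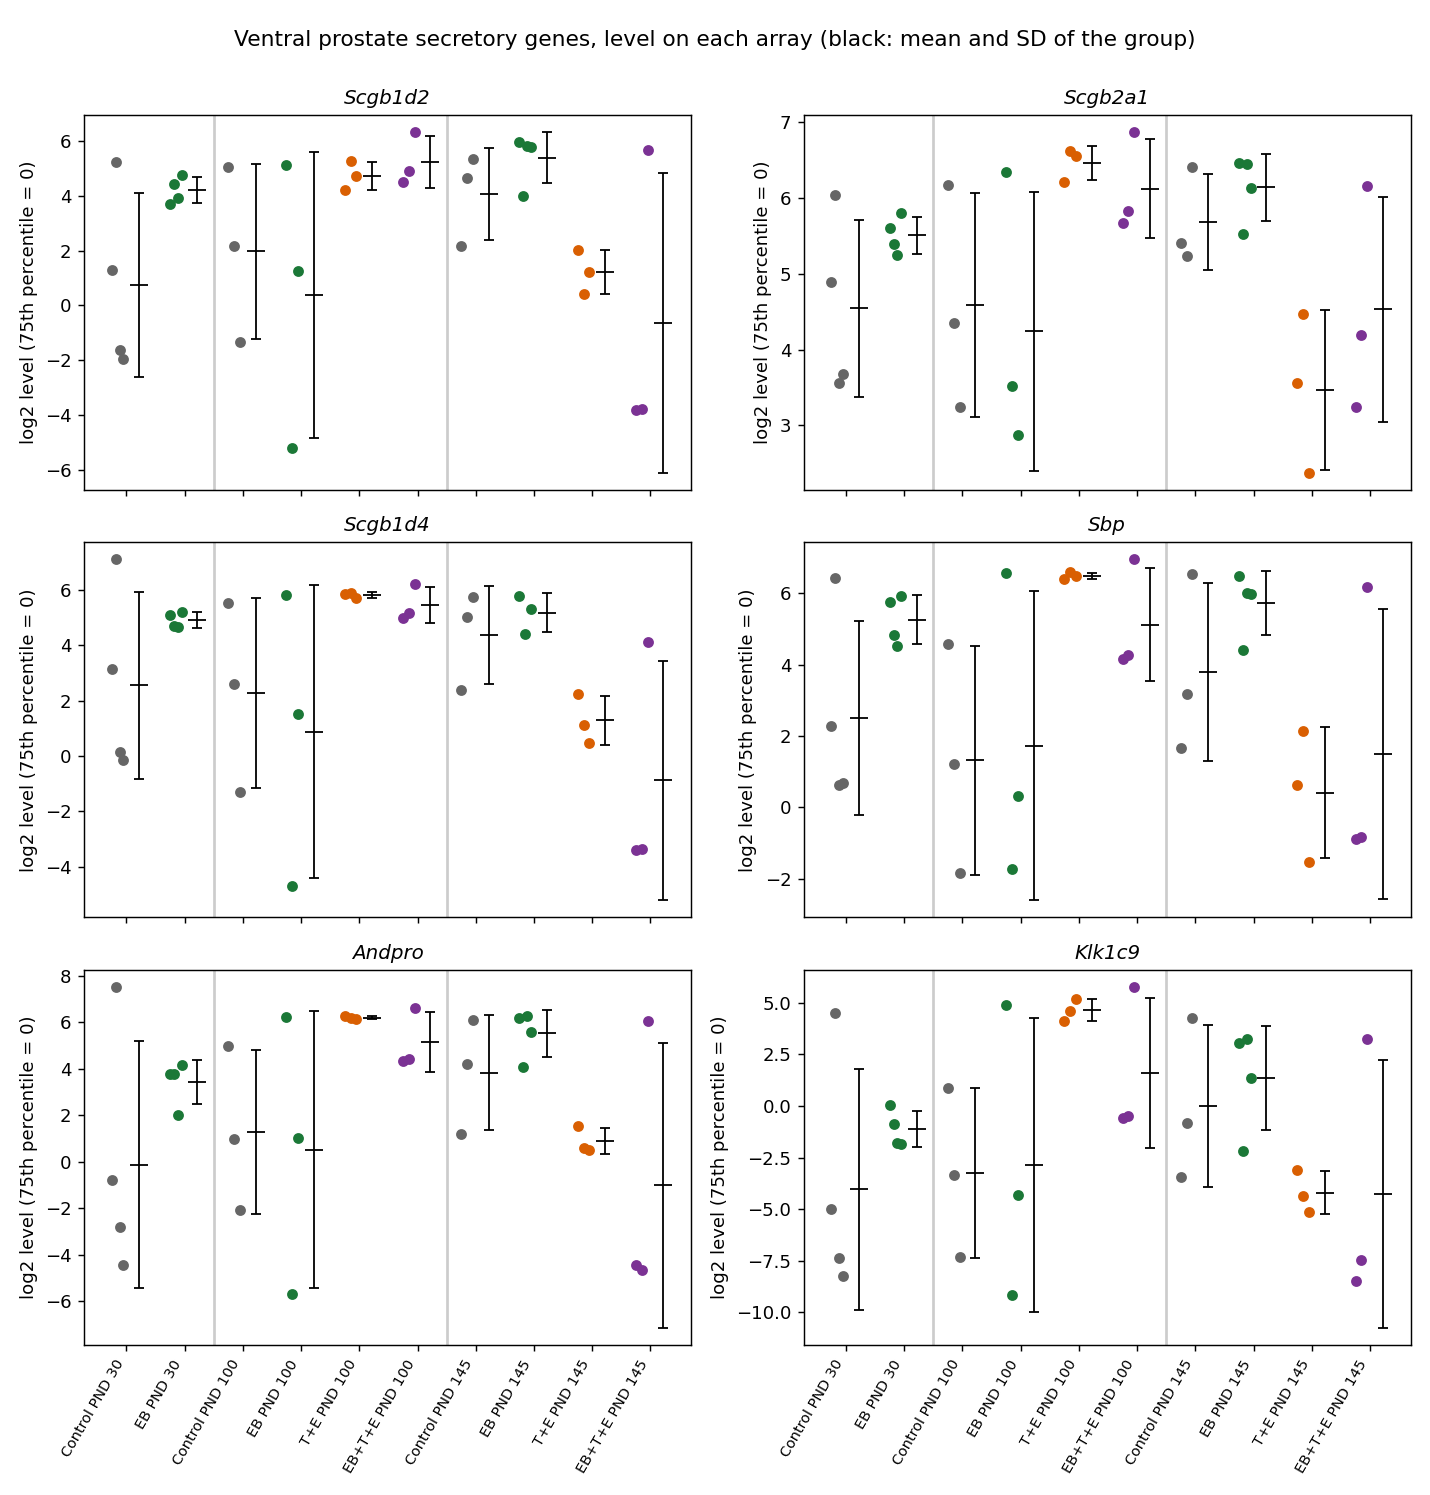
Level of each secretory gene on every array (vertical axes, log2 relative to the 75th percentile of the array) in the 10 groups, with 1 point per array and the group mean and SD in black; the scales differ between panels. The 3 T+E arrays of PND 100 lie close together and have the highest group mean in the panels of Scgb2a1, Scgb1d4, Sbp, Andpro and Klk1c9, while the controls and the EB+T+E arrays of PND 145 spread over several log2 units.

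At PND 30 the control animals differed widely and the EB animals little. Scgb1d2, the C1 subunit, was at 1.30, 5.24, -1.64 and -1.94 in control replicates 1 to 4 and at 3.71, 4.44, 3.92 and 4.76 in EB replicates 1 to 4. The EB arrays lay inside the range of the controls, of which replicate 2 was the highest and replicates 3 and 4 the lowest. Andpro showed the same order in controls, with -0.78, 7.53, -2.83 and -4.46, and stood at 3.76, 3.76, 2.02 and 4.14 after EB. Control replicate 2 held the highest Andpro and Scgb1d4 levels (7.53 and 7.10) of all arrays. Sbp was at 2.30, 6.44, 0.64 and 0.70 in controls and at 5.76, 4.83, 4.53 and 5.92 after EB. For Scgb2a1 the controls were at 4.90, 6.04, 3.56 and 3.68 and the EB arrays between 5.24 and 5.80.

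The group means were higher after EB for all 6 genes, by 0.96 (Scgb2a1) to 3.56 (Andpro) log2 units, but 0 of 6 were called by limma (adjusted p 0.457 to 0.680) and 0 had an unadjusted p under 0.05. In this comparison 0.0475% of all genes were called. For Scgb1d2 the difference was 3.47 (SE 1.85, adjusted p 0.457), and between arrays of 1 slide it ran from -0.48 to 6.38. No member separated the arrays of the groups, against 9.0% of all genes. The spread itself was unequal: the SD of Scgb1d4 was 3.37 in 4 controls and 0.27 in 4 EB arrays, which was not tested. A summary of 8 seminal vesicle genes was at -2.17 to -1.29 with EB and -0.13 to 2.84 in controls. Basal epithelial (-0.20 to 0.38 against 0.64 to 1.06) and fibroblast (0.86 to 1.24 against 0.33 to 0.70) summaries did not overlap either. No gene of these lists was called, and their part in the levels of the secretory genes was not tested.

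In adult controls the levels again differed between animals. At PND 100 Scgb1d2 was at 5.05, 2.17 and -1.32 in control replicates 1 to 3, Sbp at 4.60, 1.21 and -1.84, and Klk1c9 at 0.88, -3.33 and -7.33. All 6 genes were highest in replicate 1 and lowest in replicate 3. At PND 145 the controls were at 2.16, 4.66 and 5.33 for Scgb1d2, 1.18, 4.19 and 6.10 for Andpro, and 1.66, 3.19 and 6.54 for Sbp. Here replicate 3 was highest in all 6 genes. Control replicate 3 of PND 100 and replicate 2 of PND 145 also had the highest summary of 8 seminal vesicle genes among controls of their age, 5.99 and 6.23 above their medians, against 0.17 to 2.26 in the other adult controls. Their part in the levels of the secretory genes was not tested.

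With age, the means of control animals differed by -1.19 (Sbp) to 1.42 (Andpro) between PND 100 and PND 30, and by 1.10 (Scgb2a1) to 3.26 (Klk1c9) between PND 145 and PND 100. In both comparisons 0 of 6 were called, against 2.25% and 0.0% of all genes; the last is a count of 0, with 569 genes at an unadjusted p under 0.05, none of them a member. Arrays of the ages overlapped for all 6 genes, where 26.7% and 10.4% of all genes did not overlap. On both slides with controls of PND 100 and PND 145, all 6 genes were higher at PND 145, by 0.89 (Scgb2a1) to 3.88 (Klk1c9). Between PND 30 and PND 100 the within-slide differences took both signs for every gene. By the group means no age step could be told from the spread between control animals. The direction of the PND 100 step changed for each of the 6 genes when single arrays were left out.

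EB alone gave no shift of the group means in adults that exceeded this spread. At PND 100 the 3 EB arrays were at 5.11, -5.20 and 1.24 for Scgb1d2, at 6.21, -5.69 and 1.00 for Andpro and at 4.90, -9.17 and -4.32 for Klk1c9, so replicate 1 was high and replicate 2 the lowest of all 33 arrays for these genes and for Scgb1d4. The leukocyte list, whose 10 genes are described with the EB+T+E animals, stood at 0.50, 2.49 and 4.52 above its median in EB replicates 1 to 3 of PND 100, against -0.88 to -0.01 in controls, and its part in these levels was not tested. At PND 145 the 4 EB arrays were higher and closer, at 5.97, 3.99, 5.81 and 5.77 for Scgb1d2, 6.50, 4.42, 6.01 and 5.98 for Sbp and 6.17, 4.06, 6.25 and 5.59 for Andpro, with replicate 2 the lowest. Against controls the differences were -1.59 (Scgb1d2) to 0.40 (Sbp) at PND 100 and 0.46 (Scgb2a1) to 1.93 (Sbp) at PND 145. At both ages 0 of 6 were called, against 2.69% and 0.57% of all genes, and arrays overlapped for all 6, where 26.8% and 19.2% of all genes did not. On the slides with both groups at PND 100, EB was lower for Scgb1d2 (-3.88 and -3.81) and Scgb1d4 (-3.40 and -4.01). The same held for Andpro (-3.60 and -3.95) and Klk1c9 (-1.84 and -5.21). The differences were 0.27 and -3.30 for Scgb2a1 and 0.10 and -4.27 for Sbp. EB replicate 1 was on a slide without controls of PND 100. At PND 145 the within-slide differences ran from -1.36 to 1.23. Klk1c9 was lower on both slides (-1.36 and -1.04), though its mean was higher. The EB effect at PND 100 minus that at PND 30 was -5.05 (SE 2.83) for Scgb1d2 and -1.31 to -4.33 for the others, with 0 of 6 called, against 0.0216% of all genes. The EB effect at PND 145 minus that at PND 100 was 0.80 to 2.92, again with 0 of 6 called, against 0.0% of all genes (1000 at an unadjusted p under 0.05, none of them a member). The seminal vesicle summary at PND 145 was -1.33 to 0.40 with EB and 1.99 to 6.23 in controls, with 2 of 8 genes fallen. The dorsolateral prostate (-0.28 to 0.20 against 0.29 to 0.54) and fibroblast (-1.39 to -0.33 against -1.82 to -1.47) summaries did not overlap either. Nor did that of leukocytes (0.14 to 0.77 against -1.17 to -0.27). No gene of these last lists was called, and their part in the levels of the secretory genes was not tested.

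At PND 100 the T+E arrays lay close together. Andpro was at 6.27, 6.16 and 6.14 in the 3 T+E arrays and at 4.95, 0.98 and -2.09 in controls. Sbp was at 6.40, 6.59 and 6.48 with T+E and at 4.60, 1.21 and -1.84 in controls. Every T+E array lay above every control array for both. Scgb1d4, the C2 subunit, was at 5.85, 5.88 and 5.70 with T+E and at 5.54, 2.62 and -1.30 in controls, and Scgb2a1, the C3 subunit, at 6.21, 6.62 and 6.56 against 6.17, 4.35 and 3.25. Control replicate 1 came close to the T+E arrays in both. Klk1c9 was at 4.13, 4.59 and 5.21 with T+E and at 0.88, -3.33 and -7.33 in controls, the last not well above background. Scgb1d2 was at 4.20, 5.24 and 4.70 with T+E, overlapping control replicate 1 at 5.05.

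Thus 5 of 6 genes did not overlap between the groups at PND 100, against 21.4% of all genes in either direction. The differences of the means were 2.75 (Scgb1d2), 1.87 (Scgb2a1), 3.52 (Scgb1d4), 5.17 (Sbp), 4.91 (Andpro) and 7.90 (Klk1c9) log2 units. For Sbp this is a 36.0-fold difference (SE 1.90, adjusted p 0.350). By limma 0 of 6 were called, against 0.181% of all genes. An unadjusted p under 0.05 was found for 3 of 6 (Scgb2a1, Sbp and Klk1c9), and for 1931 of all 23156 genes. The fit takes 1 spread per gene for all groups. For Andpro, however, the SD was 0.068 with T+E and 3.53 in controls here, and 6.13 in EB+T+E arrays of PND 145. Its standard errors therefore do not describe the spread of these groups alone. On slides that held arrays of both groups, the Sbp difference was 1.99, 5.28 and 8.23 and the Andpro difference 1.21, 5.17 and 8.36. All 6 genes were higher with T+E on each of these 3 slides, and for Sbp and Andpro the difference was largest on the slide with control replicate 3 and smallest on that with control replicate 1. The median difference over the 6 genes was 4.22, against -0.04 over all genes.

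At PND 145, after a longer exposure, the T+E arrays lay on the other side of the controls. Scgb1d2 was at 2.01, 0.43 and 1.23 with T+E and at 2.16, 4.66 and 5.33 in controls. Scgb1d4 was at 2.24, 1.13 and 0.48 against 2.38, 5.01 and 5.74, and Scgb2a1 at 3.56, 4.48 and 2.37 against 5.41, 5.24 and 6.42. For these 3 prostatein subunits every T+E array lay below every control array, although control replicate 1 lay close to the highest T+E array for Scgb1d2 and Scgb1d4. Andpro was at 1.52, 0.60 and 0.52 against 1.18, 4.19 and 6.10, Sbp at 0.62, 2.13 and -1.53 against 1.66, 3.19 and 6.54, and Klk1c9 at -3.10, -4.37 and -5.17 against -3.45, -0.84 and 4.28. These 3 overlapped control replicate 1.

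The means were lower than in controls by 2.22 (Scgb2a1) to 4.21 (Klk1c9) log2 units. By limma 0 of 6 were called, against 0.384% of all genes. Only 1 of 6, Scgb2a1, had an unadjusted p under 0.05 (difference -2.22, SE 0.79, adjusted p 0.280). The same held for 2281 of all 23156 genes. Of all genes 21.8% did not overlap, and 3 of 6 members did not. On the 3 slides with both groups the Sbp difference was -1.05, -1.06 and -8.07, and the Andpro difference 0.34, -3.60 and -5.58. The median over the 6 genes was -3.02, against -0.04 over all genes. Other summaries did not overlap between these groups either: the seminal vesicle list was at -0.07 to 0.86 with T+E and 1.99 to 6.23 in controls, the fibroblast list at -0.85 to 0.02 and -1.82 to -1.47, and the leukocyte list at -0.17 to 0.60 and -1.17 to -0.27. No gene of these lists was called, and their part in the levels of the secretory genes was not tested.

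The T+E effect at PND 145 minus that at PND 100 was -5.58 (Scgb1d2), -4.09 (Scgb2a1), -6.62 (Scgb1d4), -8.56 (Sbp), -7.86 (Andpro) and -12.11 (Klk1c9). Of the 6 genes 5 had an unadjusted p under 0.05, as did 1050 of all 23156 genes. The 6 genes moved together from array to array, so the 5 are not separate results. Scgb2a1 had the smallest adjusted p (0.363, SE 1.11), but 0 of 6 were called, against 0.0259% of all genes. The T+E arrays were high and close together at PND 100 and low at PND 145. The 2 sets of T+E arrays did not overlap for any of the 6 genes; this pair of groups was picked after its values were seen and was given no test.

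**Figure D2:**
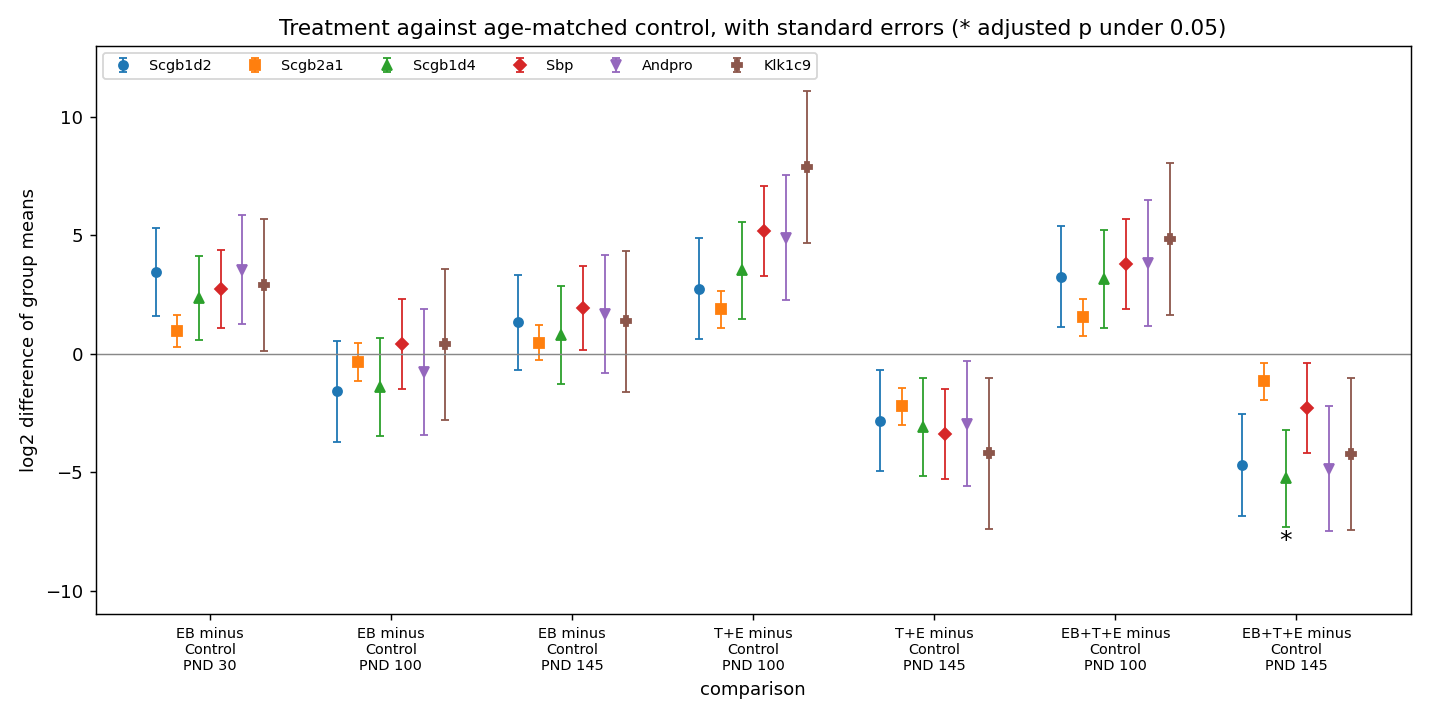
Log2 difference of group means (points) with the standard error of the fit (bars) for the 6 secretory genes in each treatment against control animals of the same age. With T+E the points lie above 0 at PND 100 (1.87 to 7.90) and below 0 at PND 145 (-4.21 to -2.22); the star marks Scgb1d4 in EB+T+E at PND 145, called at an adjusted p of 0.0487.

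With EB followed by T+E, the levels at PND 100 were mostly high. Scgb1d2 was at 4.48, 4.90 and 6.30, Scgb1d4 at 4.98, 5.18 and 6.20, Andpro at 4.35, 4.43 and 6.62 and Sbp at 4.16, 4.27 and 6.96. Klk1c9 was at -0.57, -0.46 and 5.79. Replicate 3 was the highest array of all 33 for Scgb1d2, Scgb2a1, Sbp and Klk1c9. The means exceeded the controls by 1.54 (Scgb2a1) to 4.85 (Klk1c9), with 0 of 6 called, against 12.6% of all genes, and with overlapping arrays for all 6, where 26.2% of all genes did not overlap. Against EB alone the differences were 1.88 (Scgb2a1) to 4.85 (Scgb1d2), with 0 of 6 called, against 1.71% of all genes. An unadjusted p under 0.05 was found for 3 of 6, and for 3625 of all 23156 genes. None of the 6 was free of overlap (10.9% of all genes were). Without EB replicate 1 of PND 100, Scgb2a1 was called (2.93, adjusted p 0.0362). Against T+E alone the differences were -3.06 (Klk1c9) to 0.51 (Scgb1d2), with 0 of 6 called, against 3.98% of all genes, and overlap in all 6 (17% of all genes did not). On both slides that held arrays of these groups, EB+T+E was lower for every member but Scgb1d2: by slide the difference was -4.70 and -5.05 for Klk1c9, -2.24 and -2.32 for Sbp and -1.92 and -1.73 for Andpro. Replicate 3 was on another slide, and without it the Klk1c9 difference was -5.16 (adjusted p 0.296) and that of Scgb1d2 -0.023. Lists of other cell types also differed in these arrays. The leukocyte summary was 1.48 to 2.68, with 6 of 10 genes risen against control, while 4 of 8 luminal epithelial, 3 of 4 dorsolateral prostate and 4 of 8 seminal vesicle genes fell. The luminal summary was lowest in replicate 1, at -3.03. Their part in the levels of the secretory genes was not tested. The interaction of EB and T+E at PND 100 was -3.45 to 2.10, with 0 of 6 called, against 0.0% of all genes (1999 at an unadjusted p under 0.05, none of them a member).

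At PND 145 the EB+T+E animals split. Scgb1d2 was at -3.83, -3.76 and 5.65, Scgb1d4 at -3.39, -3.37 and 4.12, Andpro at -4.44, -4.67 and 6.06 and Sbp at -0.89, -0.82 and 6.20. Replicates 1 and 2 were near the bottom of all arrays and replicate 3 near the level of the EB group. Scgb2a1 was at 3.25, 4.19 and 6.16, and Klk1c9 at -8.50, -7.49 and 3.24, well above background on replicate 3 alone.

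Against control, Scgb1d4 was called (difference -5.26, SE 2.06, adjusted p 0.0487), 1 of 6 members where 35.4% of all genes were called. Its arrays overlapped, as for all 6 genes (52.5% of all genes did not overlap), and the within-slide differences were -8.38 and -1.62. Without EB+T+E replicate 1 the adjusted p of Scgb1d4 was 0.210, without replicate 2 0.198, and without control replicate 2 or 3 0.121 and 0.139. Without EB+T+E replicate 3, Scgb1d2, Scgb1d4 and Andpro were called (Scgb1d2 -7.85, adjusted p 0.00392; Andpro -8.38, adjusted p 0.0140). Under 6 other settings Scgb1d4 was not called, with an adjusted p just above the threshold with the mean of all probes and between 0.0507 and 0.0927 in the others. A share of 1 in 6 beside 35.4% of all genes is no result about the members.

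Against EB alone, Scgb1d2 (-6.03, SE 2.00, adjusted p 0.0305) and Scgb1d4 (-6.05, SE 2.06, adjusted p 0.0356, with 3 EB arrays) were called, 2 of 6 where 22.9% of all genes were called. Andpro differed by -6.54 (adjusted p 0.0574), Klk1c9 by -5.61, Sbp by -4.23 and Scgb2a1 by -1.61. Only Scgb1d4 among the 6 did not overlap between the groups, against 31.4% of all genes, with within-slide differences of -9.17 and -7.77; its highest EB+T+E array, 4.12, lay next to the lowest EB array, 4.40. For Scgb1d2 the within-slide differences ran from -9.80 to -0.16, the last on the slide with EB+T+E replicate 3. Both calls were lost when EB+T+E replicate 1 or 2, or EB replicate 1 or 4, was left out, and without EB replicate 3 Scgb1d4 alone was called. All 6 were called without EB+T+E replicate 3 (Andpro -10.07, adjusted p 0.00415; Klk1c9 -9.36, adjusted p 0.0275). With only these groups in the fit neither was called.

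Against T+E alone at PND 145 the differences were -2.16 (Scgb1d4) to 1.09 (Sbp), with 0 of 6 called, against 21.4% of all genes, and overlap in all 6 (41.1% of all genes did not). The interaction of EB and T+E was -3.59 to 0.60, with 0 of 6 called, against 0.769% of all genes. Leukocyte genes were high in the same arrays: all 10 genes of a leukocyte list, from Ptprc, the pan-leukocyte phosphatase, to Jchain, the joining chain of antibodies, rose against control and against EB, by 9.30 and 7.59 for Jchain. The summary of the list was 5.44, 5.33 and 3.74 in EB+T+E replicates 1 to 3, against -1.17 to -0.27 in controls and 0.14 to 0.77 with EB. Of 15 genes of protein folding and translocation in the secretory pathway, 12 fell against control and 5 against EB, among them Canx, a folding chaperone of the endoplasmic reticulum (-1.24 and -1.06). Of 8 luminal epithelial genes 4 fell against control and 2 against EB, where 35.4% and 22.9% of all genes were called. The part of these in the levels of the secretory genes was not tested.

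**Figure D3:**
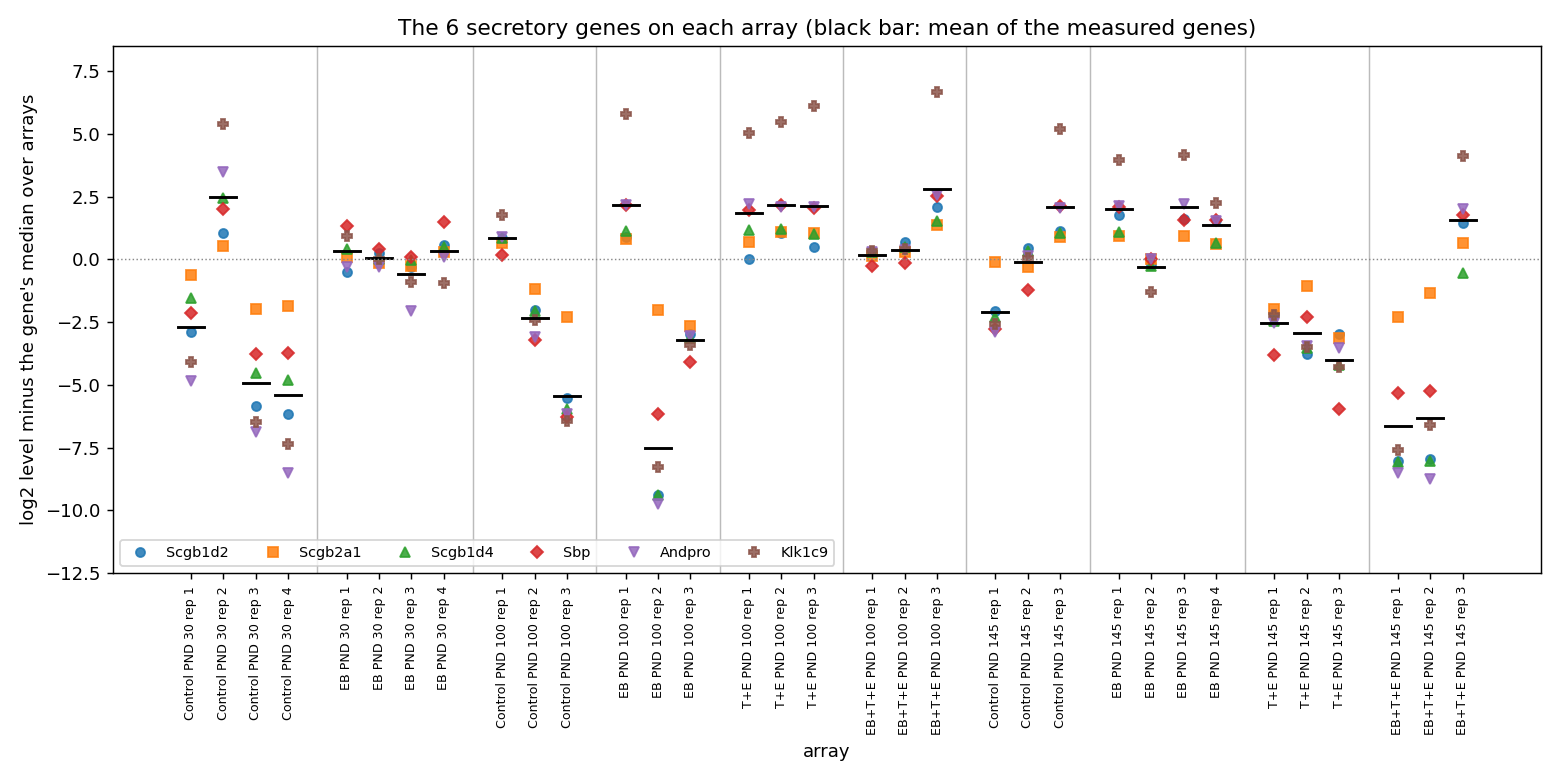
The 6 secretory genes on each of the 33 arrays, grouped by treatment and age; the vertical axis is the log2 level minus the gene's own median over arrays, and the black bar is the mean of the measured genes. The genes move up and down together from array to array, from a mean of -7.49 (EB PND 100 replicate 2) to 2.79 (EB+T+E PND 100 replicate 3), and Scgb2a1 moves least.

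The 6 genes moved as a block from array to array. With each gene set relative to its own median over arrays, 10 of 33 arrays had all measured genes above, 14 had none above and 9 were mixed. The mean of these centred values was 1.85, 2.18 and 2.14 in the T+E arrays of PND 100 and -2.52, -2.93 and -4.01 in those of PND 145. In EB animals of PND 30 it was 0.33, 0.04, -0.57 and 0.33. In the 10 control arrays it ran from -5.44 (PND 100 replicate 3) to 2.48 (PND 30 replicate 2). The lowest 3 arrays were EB PND 100 replicate 2 (-7.49) and EB+T+E PND 145 replicates 1 and 2 (-6.63 and -6.32). By slide, the median of the mean was -2.32, -0.10, -0.19 and 1.82 on slides 1 to 4, each with 8 arrays of several groups; slide 5 held 1 array.

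Pearson's r between pairs of the 6 genes was 0.829 to 0.972 over the arrays. The closest pairs were Scgb1d2 with Scgb1d4 (r 0.972, 32 arrays) and Scgb1d2 with Andpro (0.972). Against Scgb1d2, taken as the reference, Spearman's rho was 0.888 (Sbp) to 0.924 (Andpro), with a permutation p of 1e-05 for each, the smallest that 100000 permutations can give (adjusted over the 18 relations computed, 3.6e-05 for r and 3e-05 for rho). The permutations shuffled arrays freely across groups and slides, so the p-values of all these relations treat arrays of 1 group as independent. Without the 2 arrays farthest from the Scgb1d2 median r was 0.824 to 0.965. Within slides r was 0.791 to 0.992, and for the deviations from the group means it was 0.788 (Scgb2a1) to 0.985 (Scgb1d4), so the genes also moved together among animals of 1 group. The members were proposed as a set with these data known, and the arrays share their scaling, so these values describe the set.

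The probes of near-identical genes set a limit on reading single members. Scgb2a1 had 4 probes: the one used spanned 4.50 log2 units over the arrays, and the others 6.08, 8.93 and 10.92, with r of 0.957, 0.820 and 0.880 against it. A pair of these is shown, with the run they share in capitals, because these probes carry different gene names and lie at different places on chromosome 1 of rn4, chr1:212299522-212299581 and chr1:212164135-212164194, while 50 of their 60 bases are the same.

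Scgb2a1 probe listed as Scgb2a2: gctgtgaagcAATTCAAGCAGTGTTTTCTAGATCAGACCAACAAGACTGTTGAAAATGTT

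Scgb2a1 probe listed as Scgb2a1: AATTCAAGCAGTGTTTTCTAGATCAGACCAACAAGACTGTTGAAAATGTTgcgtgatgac

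The range of Scgb2a1 therefore differed with the probe read. With the probe spanning 6.08 log2 units and the other probe of Sbp, which spanned 12.86 against 8.80, no count of called members changed; that Scgb2a1 probe is also named Scgb2a2. The probes named Scgb2a1, spanning 8.93 and 10.92 log2 units, were then each used alone, a setting chosen after the values were seen, and again no count changed. With them the T+E difference of Scgb2a1 was 2.85 and 6.64 at PND 100 and -2.94 and -3.69 at PND 145, against 1.87 and -2.22 with the probe used. Several of its smaller differences changed sign, such as EB minus control at PND 100, 1.06 and 1.37 against -0.35. The probe spanning 10.92 was well above background on 22 of 33 arrays. The Sbp probe also shares a run of 22 bases, CAAATGCCCTTTATCTCTCTGT, with the probe of its neighbour Sbpl, so signal from the one gene on the other's probe cannot be told apart. Klk1c9 and the other kallikreins are likewise open to such sharing.

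Among 13701 other genes well above background on at least 17 arrays, those most like the mean of the 6 over the 33 arrays were P22k15, a cystatin-related protein (r 0.967), S100a7l2 (0.963), Sbpl (0.958, named Zg16b in RefSeq), Klk1c2 (0.938) and S100vp, an S100 protein named for the ventral prostate (0.911). Klk1c3 (0.897), Cyssl1, a cystatin S relative (0.894), Klk1 (0.866), Klk1c8 (0.865) and Insl6 (0.839) followed. P22k15 ranged from -9.57 to 5.75 and S100a7l2 from -8.51 to 6.44. The lowest r were those of Trim5 (-0.742), Inpp1 (-0.692), Angptl6 (-0.688), Jmjd1c (-0.671) and Nlrc4 (-0.659).

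The other tissue kallikreins followed the same arrays. Of 11 listed, 9 were measured, and their summary was 4.18, 5.43 and 6.94 above the median in T+E arrays of PND 100, against 1.49, -0.83 and -2.13 in controls. Their median difference there was 6.56 log2 units, against -0.04 over all genes, with 0 of 9 called and all 9 higher; Klk1c6 differed by 6.79 (SE 2.03, adjusted p 0.194). At PND 145 the median was -2.79, with 8 of 9 lower and 0 called, Klk1c10 being higher by 3.16 (adjusted p 0.237). Over 33 arrays the summary had r 0.719 and rho 0.866 with Scgb1d2, and r was 0.563 to 0.828 within slides. Other secretoglobins behaved differently in EB+T+E animals of PND 145: of 4 measured, Scgb3a1, Scgb2b2 and Scgb1a1, the uteroglobin of airway club cells, rose against EB (by 3.33, 3.35 and 3.81) and Scgb1c1 fell by 1.41. In this comparison with EB 22.9% of all genes were called. Scgb3a1 also rose with T+E alone at PND 145 (3.40, adjusted p 0.00125), where 0.384% of all genes were called.

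**Figure D4:**
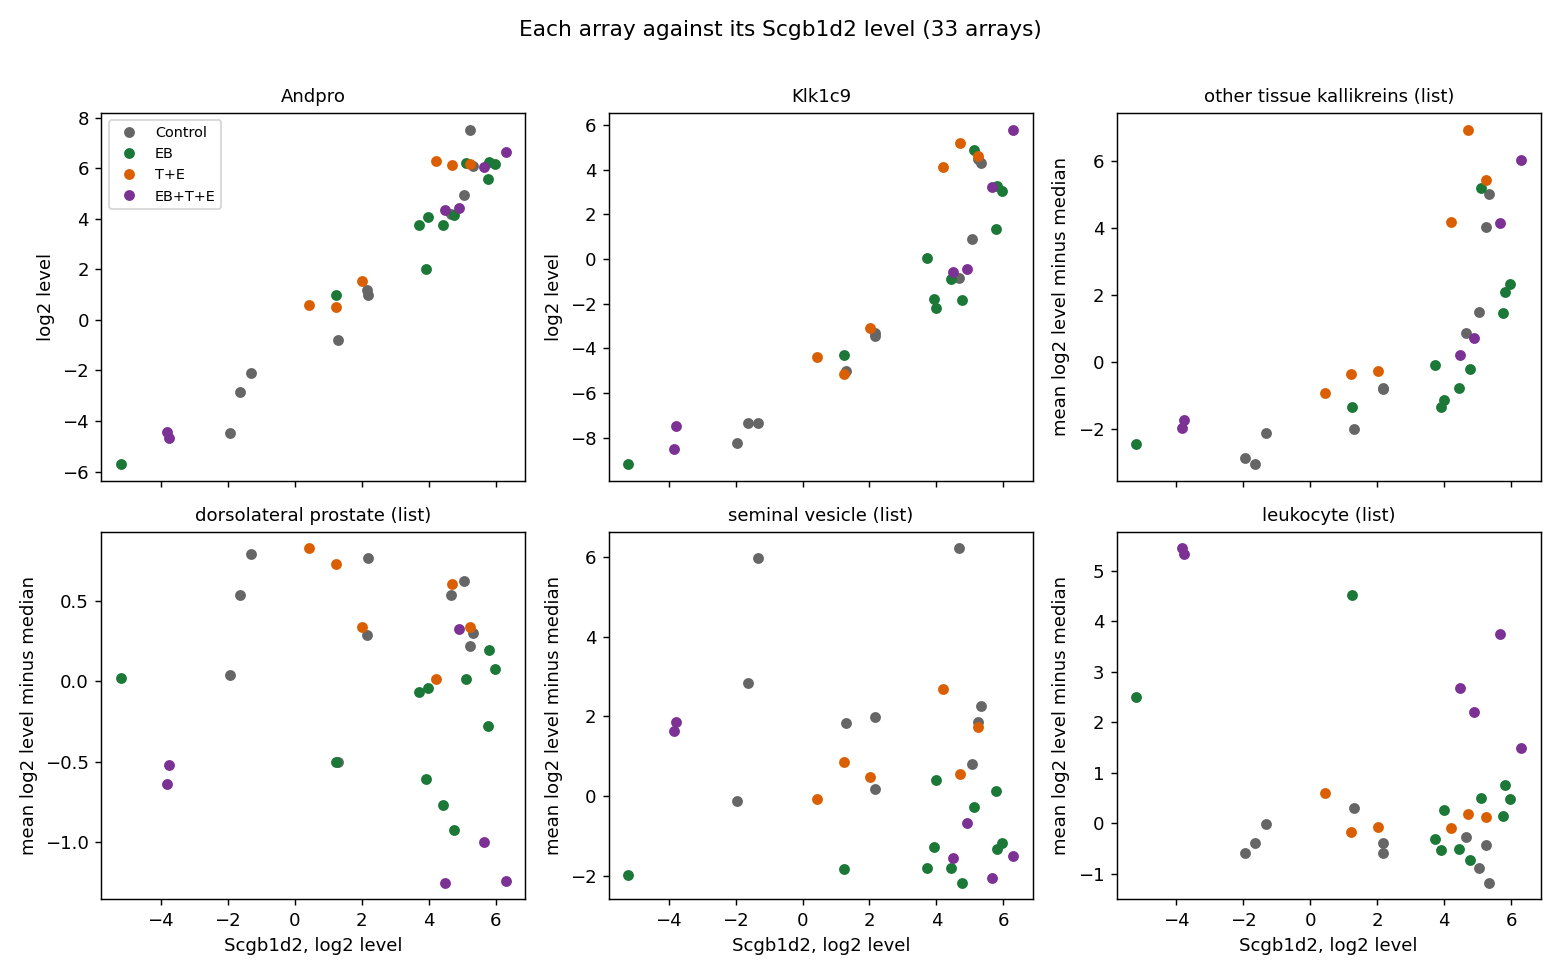
Each panel sets 1 gene or the summary of 1 gene list (vertical axis, log2) against the Scgb1d2 level of the same array (horizontal axis, log2), with 1 point per array coloured by treatment. Andpro, Klk1c9 and the other kallikreins rise with Scgb1d2 (r 0.972, 0.901 and 0.719), whereas the summaries of dorsolateral prostate and seminal vesicle genes (r -0.124 and -0.216) spread at every Scgb1d2 level. The dorsolateral summary does not include Sbpl, a gene of that list.

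As markers of lobe share, the secretory genes were set against products of other lobes and glands. A list of dorsolateral prostate genes, summarised from Pbsn, Msmb, Tgm4 and Spink1, had r -0.124 and rho -0.151 with Scgb1d2 (adjusted p 0.591 and 0.516), and r was -0.451 to 0.384 within slides. Sbpl was also on this list, but it was measured under the name Zg16b and was left out of the summary. Its r with the mean of the secretory genes was 0.958, and its probe shares a run of 22 bases with that of Sbp. Without Sbpl, the 4 genes of the summary differed by -1.05 to -0.08 between T+E and control at PND 100, where Sbp differed by 5.17. The list of 8 seminal vesicle genes had r -0.216 and rho -0.214 (adjusted p 0.337 and 0.327). Luminal epithelial genes, which mark the secretory cell layer of all lobes, had r 0.064, and basal epithelial (-0.045), smooth muscle (0.103) and fibroblast (-0.193) genes also gave no r past the threshold. The leukocyte list gave r -0.397 (adjusted p 0.0451), but rho was -0.071 (adjusted p 0.783), and r was -0.192 without the 2 arrays farthest from the Scgb1d2 median. Within slides it was -0.895 to 0.440, and -0.463 for deviations from the group means, so the relation differed between slides.

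As markers of androgen action, they were set against 18 genes known to respond to androgens outside this family, such as Fkbp5, a chaperone of steroid receptors. Their summary had r 0.154 and rho 0.212 with Scgb1d2 (adjusted p 0.508 and 0.327). With T+E at PND 100, 0 of 18 were called, with a median difference of -0.15. Fkbp5 differed by 0.58 (adjusted p 0.945). The summary of the 18 lay somewhat higher, with overlap, at 0.17 to 0.38 with T+E and 0.03 to 0.25 in controls. At PND 145, 0 of 18 were called with T+E, with a median of 0.14. In EB+T+E against EB at PND 145, 3 of the 18 rose (Pmepa1, Tmprss2 and Herc3) and 1 fell, a share close to the 22.9% of all genes called. In EB+T+E at PND 100, 0 rose and 2 fell against control and likewise against T+E, where 12.6% and 3.98% of all genes were called. Polyamine genes, whose product spermine is bound by Sbp, had r 0.466 (adjusted p 0.0157) and rho 0.422 with Scgb1d2. Their r was 0.318 without the 2 farthest arrays, 0.181 to 0.694 within slides and 0.394 for deviations from the group means. The genes of the secretory pathway had r 0.296 (adjusted p 0.157).

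The array's own brightness moved against the Scgb1d2 level to some degree. The 75th percentile before scaling had rho -0.422 with Scgb1d2 (adjusted p 0.0337; r -0.345, adjusted p 0.0885), and the percentage of spots well above background r -0.356 (adjusted p 0.0827). Levels are taken relative to the 75th percentile of the same array, so a negative relation with it is partly built in. Within slides r with the percentile was -0.597 to -0.033. Its part in the levels was not tested.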

How the data were processed

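Each of the 33 RNA samples was hybridised to its own 1-colour Agilent array. The deposited scanner files hold fluorescence intensity values that Agilent Feature Extraction 12.0.0.7, per the file headers, background-subtracted and detrended within each array, with no scaling between arrays. A further deposited table gives intensity on a linear scale, brought by the authors to a like 75th percentile judging from its values; no source used here states its making. From the processed signal, log2 was taken and the array's log2 75th percentile subtracted; the deposited values are not on the log2 scale. Outlier spots were left out and spots of 1 probe averaged. Of 45598 probes, 30543 were well above background on at least 3 arrays, and the brightest probe per gene was kept.

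One model of the 10 group means over all 33 arrays used limma 3.58.1 (R 4.3.3; trended, robust empirical Bayes) and p-values adjusted by Benjamini-Hochberg over 23156 genes within each of 18 comparisons, at 0.05. Standard errors and adjusted p-values come from this fit unless named otherwise. List summaries are means of levels minus each gene's median. Promoters were aligned with Biopython 1.88. Every member was named in every group, with the 10 genes most and 5 least like their mean. The fit was tested on simulated data. The precision is limited by the number of arrays, 3 or 4 a group. Alternatives were other background correction, scaling, filters, blocks (slide, replicate number), samples, probes, the deposited table and each array left out. The members and lists were chosen with earlier results of these data known; the relations, the centred mean, the counts without overlap, the other-probe settings and the sequences shown were chosen after values were seen. Results that need items withheld from this text are not reported here.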

Additional observations from a re-analysis of the deposited data

Results flagged for a closer look

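In the EB group of PND 145, the Scgb1d2 level of replicate 2 (3.99) lay apart from the other 3 arrays, the nearest of which was at 5.77; this gap was 0.899 of the range of the 4 arrays. Of 17 tests of this kind, over members in the 3 groups of 4 arrays, 1 stood out in this way, where chance gives about 1 in 20. The same array was also the lowest of its group for Scgb2a1, Scgb1d4, Sbp, Andpro and Klk1c9.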

How the results depend on the processing

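Of 2178 member differences recomputed under another setting, 2066 kept their direction and side of the threshold, 21 lost a call, 7 gained one and 84 changed sign, none of the last past the threshold in either setting; 344 of 363 counts of called members were unchanged or within 1.5 times. In EB+T+E against control at PND 145 the count of 1 became 0 with quantile scaling, with no filter on dim probes, with the replicate block, with only the groups compared, with the authors' deposited table and with the mean of all probes, and 0 to 3 when single arrays were left out. Against EB at PND 145 the count of 2 became 0 with only the groups compared and 0 to 6 when single arrays were left out, and against EB at PND 100 the count of 0 became 0 to 1. The cause was not tested.

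Scgb2a1 in control PND 100 minus PND 30 (0.04) became -0.22 with normexp, -0.14 with quantile scaling, -0.022 with the replicate block, -0.82 with the mean of probes and -0.52 with the other probe. Its interaction at PND 100 (0.01) became -0.030, -0.19, -1.25 (mean of probes) and -0.17 (other probe), in the same order without the block. With the probes named Scgb2a1, spanning 8.93 and 10.92 log2 units, the former became -1.32 and -1.49, the latter -0.34 and -4.49, and its EB difference at PND 100 (-0.35) became 1.06 and 1.37. With the one spanning 8.93 its EB+T+E minus T+E difference at PND 100 (-0.34) became 0.71 and its EB effect at PND 145 minus PND 100 (0.80) became -0.66; with the other its interaction at PND 145 (0.60) became -0.35. With the mean of probes its EB difference at PND 100 became 0.46. With the slide as a block, Scgb1d4 in control PND 100 minus PND 30 became 0.14 and Klk1c9 in EB minus control at PND 100 became -0.52. Klk1c9 in EB+T+E minus T+E at PND 145 became 1.07 with normexp. Same-numbered samples did not pair: in 0 of 11 comparisons was every pair's correlation over 0.1 (range -0.44 to 0.46), and the replicate block changed no other call.

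Leaving out single arrays changed these signs. Control PND 100 minus PND 30 gave Scgb1d2 -0.31 to 2.87, Scgb2a1 -0.75 to 0.71, Scgb1d4 -1.90 to 1.52, Sbp -2.83 to 0.39, Andpro -0.42 to 3.97 and Klk1c9 -1.30 to 3.61. EB minus control at PND 100 gave Scgb1d2 -3.95 to 1.21, Scgb2a1 -1.39 to 0.45, Scgb1d4 -3.87 to 1.39, Sbp -2.03 to 2.13, Andpro -3.63 to 2.33 and Klk1c9 -3.49 to 3.55. EB minus control at PND 145 gave Scgb1d4 -0.21 to 1.47 and Klk1c9 -0.36 to 3.51. EB+T+E minus T+E at PND 100 gave Scgb1d2 -0.023 to 0.89. EB+T+E minus T+E at PND 145 gave Sbp -1.26 to 2.28 and Klk1c9 -3.78 to 2.09. The interaction at PND 100 gave Scgb1d2 -0.69 to 4.46, Scgb2a1 -0.78 to 1.06, Scgb1d4 -1.75 to 3.51, Sbp -3.50 to 0.66, Andpro -3.39 to 2.57 and Klk1c9 -6.60 to 0.43. The interaction at PND 145 gave Scgb2a1 -0.21 to 1.25, Sbp -3.19 to 0.35 and Klk1c9 -5.15 to 0.72. The EB effect at PND 100 minus PND 30 gave Klk1c9 -6.40 to 0.64. The EB effect at PND 145 minus PND 100 gave Scgb1d4 -0.60 to 4.66, Sbp -0.20 to 3.96, Andpro -0.64 to 5.32 and Klk1c9 -2.18 to 4.85. Precision is limited by 3 or 4 arrays a group, and Klk1c9 was well above background on 28 of 33.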
